A study of Homo sapiens with 30 samples.

Results

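The serine/arginine-rich (SR) proteins and the heterogeneous nuclear ribonucleoproteins (hnRNPs) were described in 5637 cells, a human bladder carcinoma line. The genes were taken by symbol, as SRSF followed by digits or as a symbol starting with HNRNP, without pseudogenes and antisense genes, and had to be listed in all 3 count tables. This gave 38 genes, of which 34 had at least 10 counts in at least 3 libraries of each table. They are 12 SR protein genes (SRSF1 to SRSF12) and 22 hnRNP genes. The 4 left out were HNRNPCL1, HNRNPCL2, HNRNPCL3 and HNRNPCL4, and the 34 are set here against the 60612 genes of the knockout table and the 56303 genes of each other table.

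Poly(A) RNA was sequenced in 30 libraries that make 10 groups of 3. In the knockout table, KO1 and KO2 carried an RBPMS knockout and were compared with the wild-type groups of the same number, WT1 and WT2. In the overexpression table, cells with ANKRD10-1 or with ANKRD10-2, the longer and the shorter splice isoform of ANKRD10, were compared with cells with the vector only (Vector). In the knockdown table, cells that received the small interfering RNA siANKRD10-1 or siANKRD10-2 were compared with siNC. The study's text describes knockout populations grown out from single clones, so a difference between KO1 and KO2 and a difference between clones cannot be told apart. It also places ANKRD10-1 overexpression and siANKRD10-2 in RBPMS knockout cells, whereas the labels give these libraries as 5637 only and each table has 1 control group. A background of RBPMS loss in those groups was therefore not resolved. RBPMS itself passed the test against the control in neither group, with log2 fold changes of -0.19 (adjusted p = 0.471) under ANKRD10-1 overexpression and 0.03 (adjusted p = 0.894) under siANKRD10-2. The study speaks of independent experiments in general, but neither the labels nor the RNA-seq methods say that the 3 libraries of a group came from separate cultures, so p-values measure the spread between these libraries, which may be technical.

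SR proteins bind exonic sequences through RNA recognition motifs, and their arginine/serine-rich domains help to bring the spliceosome to nearby splice sites. hnRNPs coat nascent transcripts and often act in the opposite sense, so that the balance of both families sets which exons are kept. Many of these genes regulate their own messages through cassette exons that expose the transcript to nonsense-mediated decay. RBPMS is an RNA-binding protein that regulates alternative splicing, and MYC, a transcription factor that binds the E-box CACGTG, is known to raise the transcription of several splicing factor genes.

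Total counts ranged from 44593108 to 69723937 over the 12 knockout-table libraries, from 31736779 to 47493499 over the 9 overexpression libraries and from 28511029 to 32784584 over the 9 knockdown libraries. The targeted genes were checked first, in counts normalized to the mean effective library size of the table. RBPMS was at 2270, 2460 and 2334 in WT1 and 881, 887 and 834 in KO1, and at 2574, 2495 and 2470 in WT2 and 1206, 1104 and 1243 in KO2, so knockout and wild-type libraries did not overlap and the transcript was still counted in the knockouts. ANKRD10, counted over all isoforms, was at 6146, 6110 and 6128 in Vector, 9717, 9607 and 9979 under ANKRD10-1 and 8430, 7571 and 8330 under ANKRD10-2. It was at 1788, 1689 and 1837 in siNC, 1573, 1466 and 1447 under siANKRD10-1 and 1458, 1502 and 1505 under siANKRD10-2. The 6 epithelial markers (EPCAM, CDH1, KRT7, KRT8, KRT18 and KRT19) were at 2353.7 normalized counts or more in every library, and GATA3, TP63 and KRT5 at 256.2 or more. The uroplakins UPK1B, UPK2 and UPK3A, which define differentiated urothelium, were at 77.2 or less. Of the markers of other cells, PTPRC, DES and PECAM1 stayed between 0.0 and 116.9, while COL1A1 was at 836.1 to 3044.1.

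The upstream sequences of 4 members are shown because their promoters differ in the E-box and their transcripts were all higher under siANKRD10-2 than in siNC. Each is the 250 bases before a RefSeq transcription start (GRCh38.p14), written 5′ to 3′ on the strand of the gene, with the letters CACGTG in capitals. HNRNPH3 lies at chr10:68331443-68331692 (plus strand), HNRNPM at chr19:8444725-8444974 (plus strand), HNRNPH2 at chrX:101407972-101408221 (plus strand) and SRSF9 at chr12:120469749-120469998 (minus strand). The E-box starts 50 bases before the start in HNRNPH3 and 42 bases before it in HNRNPM. In the GENCODE annotation HNRNPH3 begins at 68331174 and HNRNPM at 8444767, so both matches lie inside the annotated gene spans. RefSeq has 3 starts for HNRNPH3, and the windows before the other 2 hold no match. HNRNPH2 holds it at 42 and at 9 bases, and SRSF9 has no match in this window.
HNRNPH3: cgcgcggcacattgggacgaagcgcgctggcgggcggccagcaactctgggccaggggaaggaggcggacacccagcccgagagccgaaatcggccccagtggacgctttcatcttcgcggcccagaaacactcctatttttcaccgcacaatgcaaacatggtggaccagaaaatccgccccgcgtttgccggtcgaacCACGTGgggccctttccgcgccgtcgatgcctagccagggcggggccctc
HNRNPM: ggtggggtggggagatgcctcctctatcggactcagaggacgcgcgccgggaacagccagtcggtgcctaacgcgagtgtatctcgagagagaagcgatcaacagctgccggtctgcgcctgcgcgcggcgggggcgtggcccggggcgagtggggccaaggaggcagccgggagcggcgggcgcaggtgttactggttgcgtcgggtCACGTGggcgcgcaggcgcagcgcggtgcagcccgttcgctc
HNRNPH2: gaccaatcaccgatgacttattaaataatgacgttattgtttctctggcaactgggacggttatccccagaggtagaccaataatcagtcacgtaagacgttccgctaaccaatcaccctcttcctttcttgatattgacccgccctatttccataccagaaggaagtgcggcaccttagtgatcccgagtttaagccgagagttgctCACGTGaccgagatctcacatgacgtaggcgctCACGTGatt
SRSF9: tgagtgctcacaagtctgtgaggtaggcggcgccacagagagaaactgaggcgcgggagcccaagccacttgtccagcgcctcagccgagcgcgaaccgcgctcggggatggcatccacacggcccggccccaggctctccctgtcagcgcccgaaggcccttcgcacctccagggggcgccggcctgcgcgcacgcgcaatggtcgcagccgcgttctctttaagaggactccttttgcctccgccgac

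CACGTG reads the same on both strands. It was found in the promoters of 6 of the 32 members with a RefSeq promoter (18.8%), against 7.73% of 27305 genes. The 6 were HNRNPA3, HNRNPD, HNRNPDL, HNRNPH2, HNRNPH3 and HNRNPM. Counted by promoter, it was in 7 of the 46 of members and in 6.34% of 35116. The 27305 genes include genes not tested here. Of the genes tested under siANKRD10-2 that have a promoter, 1216 held it and 9788 did not. The match starts 71 bases before the start in HNRNPA3 and 27 bases before it in HNRNPD. HNRNPDL has it at 156 and at 127 bases of a pair of annotated starts. The CCAAT box (letters CCAAT on either strand, which cannot overlap CACGTG) was found in 19 members (59.4%) and in 37.0% of all genes. These are matches of letters and not binding sites. HNRNPA1 and SRSF2 had no matched promoter.

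Levels were compared between genes only as TPM, which scales counts by exon length and library size. In WT1, HNRNPA1, which packages transcripts and silences splice sites, was the most abundant member at 1218 ± 44.1 TPM (mean ± SD, n = 3). HNRNPK, which binds C-rich RNA, followed at 753 ± 11.9 TPM, HNRNPA2B1 at 725 ± 9.14 TPM and SRSF1, the founding SR protein, at 696 ± 21 TPM. The ranges of HNRNPK (741.0 to 764.9) and HNRNPA2B1 (714.8 to 731.7) did not overlap, whereas those of HNRNPA2B1 and SRSF1 (677.9 to 719.4) did. HNRNPAB was at 590 ± 15.2 TPM and SRSF2 at 481 ± 3.15 TPM. At the other end of the order stood SRSF12 at 2.87 ± 0.265 TPM, HNRNPUL2-BSCL2 at 17.9 ± 2.05 TPM, HNRNPA1L2 at 19.1 ± 2.57 TPM, SRSF8 at 35.6 ± 0.886 TPM and HNRNPLL at 37.3 ± 1.18 TPM.

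HNRNPA1 was also the most abundant member in Vector (1556 ± 54.3 TPM) and in siNC (1780 ± 44.4 TPM), and SRSF12 the least abundant in both. Other members moved far in the order between the control groups of the tables. HNRNPA0 was at 114 ± 6.65 TPM in WT1, 6.64 ± 0.454 in Vector and 9.67 ± 0.478 in siNC. SRSF2 was at 481 ± 3.15, 28.7 ± 1.13 and 46.1 ± 2.56 TPM, SRSF3 at 261 ± 5.68, 26.6 ± 0.922 and 103.6 ± 3.77 TPM, and SRSF8 at 35.6 ± 0.886, 2.87 ± 0.233 and 6.86 ± 0.354 TPM in the same order. The readthrough gene HNRNPUL2-BSCL2 went the other way, at 17.9 ± 2.05, 277 ± 37.4 and 283 ± 25.9 TPM. The tables were counted separately and their cells and counting cannot be told apart, so these levels were not tested against each other.

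Several members share sequence or exon bases with another gene, and their counts are uncertain for that reason. HNRNPUL2-BSCL2 shares 2391 exon bases on the same strand with HNRNPUL2. HNRNPA1L2 is a near copy of HNRNPA1, and SRSF8 of SRSF2. On the opposite strand SRSF9 shares 1729 exon bases with GATC, SRSF2 1106 with MFSD11, HNRNPU 3502 with COX20 and HNRNPUL1 215 with TGFB1. The library kit keeps strand, but the strand setting of the counting was not given in the sources used here. As a share of all counts, the 12 SR genes made up 0.335 to 0.358% in the knockout table, and the 22 hnRNP genes 1.30 to 1.40%.

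In KO1 the largest changes among the called members were rises of HNRNPUL2-BSCL2 and SRSF6 and a fall of HNRNPUL1. A gene was called where edgeR's quasi-likelihood test gave an adjusted p under 0.05 over all genes tested. Of the 34 members 12 were called in KO1 against WT1 (35.3%), 9 higher and 3 lower, beside 36.1% of all 17865 genes tested (17.9% higher and 18.2% lower). Of the abundant genes, those whose mean reached 5000 normalized counts, 55.1% were called. These were 995 higher and 543 lower of 2793. The median log2 fold change of the members was 0.05 and that of all genes tested -0.002, and the median absolute change was 0.11 for members and 0.26 for all genes. All 4 SR genes called rose, and the 8 hnRNP genes called were 5 higher and 3 lower.

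SRSF6, an SR protein with a pair of RNA recognition motifs (chr20:43457928-43464247, plus strand), had 22127, 21614 and 22273 normalized counts in WT1 and 29506, 29894 and 29555 in KO1. The groups were far apart, with a log2 fold change of 0.43 ± 0.040 (SE, edgeR adjusted p = 1.55e-05). HNRNPAB, a close relative of HNRNPD (chr5:178204507-178211163, plus strand), had 21427, 20878 and 21461 in WT1 and 25362, 25727 and 26511 in KO1, a log2 fold change of 0.28 ± 0.042 (SE, edgeR adjusted p = 0.000369). HNRNPUL2-BSCL2 had 1185, 1060 and 1375 in WT1 and 2077, 1660 and 1726 in KO1, a log2 fold change of 0.59 ± 0.11 (SE, edgeR adjusted p = 0.00161). This rise was lost in a fit over all libraries of the table (adjusted p = 0.106), and the WT2 libraries alone spanned 625, 1935 and 1234.

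HNRNPUL1, a member of the hnRNP U family with a SAP domain (chr19:41262496-41307598, plus strand), fell from 33972, 33386 and 31954 in WT1 to 24272, 23255 and 24788 in KO1. Its log2 fold change was -0.46 ± 0.045 (SE, edgeR adjusted p = 2.15e-05). Over the 1197 genes tested on chromosome 19 the median log2 fold change in KO1 was -0.38, and it was -0.0006 in KO2. The part of this chromosome-wide shift in the fall of HNRNPUL1 was not tested. The other members on chromosome 19 were HNRNPL (0.03, adjusted p = 0.622) and HNRNPM (-0.06, adjusted p = 0.327), and neither was called. HNRNPUL2 had 19507, 19741 and 18601 in WT1 and 16117, 17018 and 15808 in KO1, a log2 fold change of -0.24 ± 0.048 (SE, edgeR adjusted p = 0.00218). HNRNPLL, the regulator of CD45 splicing in lymphocytes, had 3715, 3737 and 3668 in WT1 and 3216, 3159 and 3348 in KO1, a log2 fold change of -0.20 ± 0.052 (SE, edgeR adjusted p = 0.0123), and was lost without WT1 replicate 2 (-0.19, adjusted p = 0.0518).

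The other members called in KO1 all rose. They were HNRNPD (0.27, adjusted p = 0.00035), which binds AU-rich elements, SRSF5 (0.27, adjusted p = 0.000862), HNRNPH3 (0.24, adjusted p = 0.00593), SRSF7 (0.18, adjusted p = 0.0126), SRSF2 (0.18, adjusted p = 0.00754) and HNRNPK (0.16, adjusted p = 0.0106). The calls of SRSF7 and HNRNPK were lost without WT1 replicate 1 (0.15) and without WT1 replicate 2 (0.16), respectively. SRSF9 (0.15, adjusted p = 0.0501) and SRSF11 (-0.15, adjusted p = 0.0513) lay just outside the threshold.

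In KO2 the largest rise among the called members was that of SRSF8 and the largest falls were those of SRSF12 and HNRNPA1L2, 3 of the 5 members with the lowest TPM in WT1. Of the 34 members 16 were called in KO2 against WT2 (47.1%), 7 higher and 9 lower, beside 38.5% of all 18267 genes tested (19.3% higher and 19.2% lower) and 61.0% of the abundant genes. The SR genes were called 4 higher and 2 lower, the hnRNP genes 3 higher and 7 lower. Among the latter, 4 of the 8 genes of the A/B and D group fell. With all 6 wild-type libraries as controls, 3 of these falls were no longer called, those of HNRNPA1 (-0.10, adjusted p = 0.115), HNRNPA2B1 (-0.07, adjusted p = 0.0568) and HNRNPA3 (-0.08, adjusted p = 0.0964). The median log2 fold change was 0.01 for members and -0.02 for all genes, and the median absolute change 0.08 and 0.25.

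SRSF8, a retrogene copy of SRSF2 (chr11:95067197-95071224, plus strand), had 2346, 2535 and 2396 normalized counts in WT2 and 3246, 3143 and 2942 in KO2, a log2 fold change of 0.35 ± 0.055 (SE, edgeR adjusted p = 0.000285). In WT1 (2426, 2355 and 2448) and KO1 (2453, 2395 and 2510) its values overlapped. HNRNPAB rose from 21768, 21676 and 22019 in WT2 to 27589, 26912 and 26907 in KO2, a log2 fold change of 0.31 ± 0.029 (SE, edgeR adjusted p = 4.75e-06), close to that in KO1. SRSF9 (chr12:120461668-120469793, minus strand), an SR protein close to SRSF1, rose from 8197, 9012 and 8561 to 9800, 10493 and 10545, a log2 fold change of 0.25 ± 0.045 (SE, edgeR adjusted p = 0.000736).

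SRSF12, which antagonizes other SR proteins (chr6:89095959-89118081, minus strand), had 257, 244 and 201 normalized counts in WT2 and 91.6, 167 and 120 in KO2. The groups did not overlap, and the log2 fold change was -0.90 ± 0.23 (SE, edgeR adjusted p = 0.00877). The libraries of KO1 spanned 113, 255 and 157. HNRNPA1L2 (chr13:52642425-52643796, plus strand) had 459, 518 and 570 in WT2 and 347, 212 and 334 in KO2, a log2 fold change of -0.79 ± 0.18 (SE, edgeR adjusted p = 0.00354). The 327 genes tested on its chromosome, 13, had a median of -0.17 in KO2, and the part of that shift in the fall was not tested. HNRNPR, which carries a glycine- and arginine-rich RGG region, fell from 25649, 24926 and 25964 to 22613, 22324 and 22321, a log2 fold change of -0.19 ± 0.030 (SE, edgeR adjusted p = 0.000316).

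The remaining rises in KO2 were SRSF6 (0.14, adjusted p = 0.00567), HNRNPH3 (0.13, adjusted p = 0.014), SRSF2 (0.12, adjusted p = 0.035) and HNRNPH1 (0.11, adjusted p = 0.0176). The remaining falls were HNRNPA1 (-0.17, adjusted p = 0.000112), HNRNPH2 (-0.17, adjusted p = 0.00224), SRSF5 (-0.13, adjusted p = 0.0311), HNRNPA3 (-0.12, adjusted p = 0.00559), HNRNPUL2 (-0.11, adjusted p = 0.0437) and HNRNPA2B1 (-0.10, adjusted p = 0.00764). The libraries of SRSF5 and HNRNPUL2 overlapped between the groups. Leaving out 1 library ended the call of HNRNPH1 (KO2 replicate 1, 0.09, WT2 replicate 2, 0.09, or WT2 replicate 3, 0.11) and of HNRNPH3 (WT2 replicate 2, 0.10). It also ended that of SRSF2 (KO2 replicate 2, 0.08, KO2 replicate 3, 0.13, or WT2 replicate 3, 0.09). The calls of HNRNPUL2 and SRSF5 held in 2 of 6 such fits each, at -0.09 to -0.13 where they were lost, without KO2 replicate 2, WT2 replicate 1 or WT2 replicate 2 for both, without KO2 replicate 3 for HNRNPUL2 and without KO2 replicate 1 for SRSF5.

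**Figure D1:**
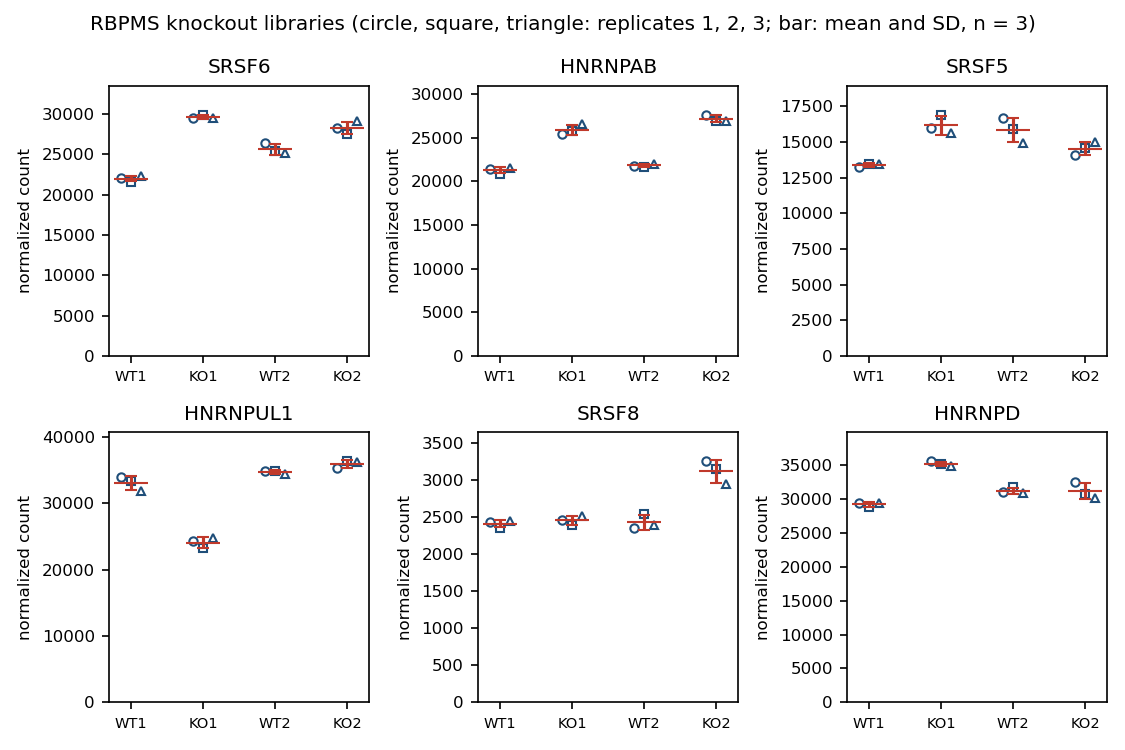
Normalized counts of SRSF6, HNRNPAB, SRSF5, HNRNPUL1, SRSF8 and HNRNPD in the 12 libraries of the knockout table, with the mean and SD of each group (n = 3) and axes from 0. HNRNPAB is above its wild-type group in both knockouts, HNRNPUL1 is low only in KO1 of the 4 groups, SRSF8 is high only in KO2, and SRSF5 lies on opposite sides of its wild-type group in KO1 and KO2.

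Both knockouts, which share no control library, had 5 members called in the same direction, 41.7% of the KO1 calls and 31.2% of the KO2 calls. Over all genes tested in both, 3090 were called in the same direction, 48.2% of the KO1 calls and 44.4% of the KO2 calls. The members shared were HNRNPAB, HNRNPH3, SRSF2 and SRSF6, which rose, and HNRNPUL2, which fell. With all 6 wild-type libraries as controls the calls of SRSF2 in KO1 (0.11, adjusted p = 0.0843) and HNRNPUL2 in KO2 (-0.05, adjusted p = 0.492) were lost. SRSF5 was called in opposite directions. HNRNPA0, HNRNPC, HNRNPDL, HNRNPF, HNRNPL, HNRNPM, HNRNPU, SRSF1, SRSF3, SRSF4, SRSF10 and SRSF11 were called in neither, and their log2 fold changes lay between -0.15 (SRSF11 in KO1) and 0.12 (HNRNPC in KO1).

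The effect in KO1 minus that in KO2 was tested over the 12 libraries together. It was called for 9 members (26.5%), 6 with a higher value in KO1 and 3 with a lower one. Beside them, 23.3% of all 19189 genes tested (11.2% higher and 12.1% lower) and 38.3% of the abundant genes were called. HNRNPUL1 differed by -0.51 ± 0.050 (SE, edgeR adjusted p = 1.69e-06) on the log2 scale. Its KO2 libraries (35311, 36345 and 36243) lay above those of WT2 (34904, 34892 and 34479), a log2 fold change of 0.04 that was not called (adjusted p = 0.238). The median of chromosome 19 differed by -0.39. SRSF5 differed by 0.40 ± 0.063 (SE, edgeR adjusted p = 0.000218). Its libraries were at 13231, 13458 and 13478 in WT1 and 16012, 16908 and 15624 in KO1, but at 16685, 15943 and 14966 in WT2 and 14073, 14560 and 15005 in KO2, so the wild-type groups themselves did not overlap.

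SRSF6 differed by 0.29 ± 0.048 (SE, edgeR adjusted p = 0.000349), and its wild-type groups were also apart, at 22127, 21614 and 22273 in WT1 and 26446, 25363 and 25136 in WT2, beside 29506, 29894 and 29555 in KO1 and 28211, 27509 and 29096 in KO2. With all 6 wild-type libraries as controls the SRSF5 calls were lost in both knockouts (0.15 in KO1 and -0.01 in KO2). The rise of SRSF6 in KO1 then was 0.32 and stayed called. HNRNPA1L2 differed by 0.90 ± 0.27 (SE, edgeR adjusted p = 0.024), with 479, 453 and 384 in WT1 and 532, 542 and 348 in KO1. That call was lost when KO1 replicate 1 (0.81), KO1 replicate 2 (0.80), KO2 replicate 2 (0.71), WT1 replicate 3 (0.81) or WT2 replicate 3 (0.83) was left out.

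SRSF8 differed by -0.33 ± 0.074 (SE, edgeR adjusted p = 0.00353) and HNRNPLL by -0.21 ± 0.068 (SE, edgeR adjusted p = 0.0336). The HNRNPLL libraries in KO2 (3427, 3602 and 3686) overlapped those in WT2 (3689, 3493 and 3391), and its difference held in 4 of 12 fits with 1 library left out (KO1 replicate 3, KO2 replicate 1, WT1 replicate 3 or WT2 replicate 1), at -0.18 to -0.22 in the others. HNRNPD, HNRNPA3 and HNRNPK differed by 0.27 (adjusted p = 0.000533), 0.23 (adjusted p = 0.0238) and 0.21 (adjusted p = 0.00249). HNRNPD rose in KO1 from 29354, 28823 and 29444 to 35520, 35174 and 34908, while its KO2 libraries (32471, 30749 and 30180) overlapped those of WT2 (30998, 31732 and 30926). The HNRNPA3 difference was lost without KO2 replicate 2 or 3, WT1 replicate 1 or 2 or WT2 replicate 1 (0.20 to 0.23). For HNRNPD, HNRNPA3 and HNRNPUL1, too, the wild-type groups WT1 and WT2 did not overlap each other. HNRNPK lies on chromosome 9, where the median over 770 genes differed by 0.43.

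Related genes in the knockouts were read from lists of splicing factors outside both symbol families. Of 30 core snRNP protein genes, which build the spliceosome, 16 were higher and 6 lower in KO1, and 11 higher and 2 lower in KO2. The share called was 73.3% in KO1 and 43.3% in KO2, beside 36.1% and 38.5% of all genes and 55.1% and 61.0% of the abundant genes. SNRPF, which belongs to the Sm ring, rose in both (0.42 and 0.27, adjusted p = 0.000297 and 0.000882). Of 26 SR-like and SR-related genes, 2 were higher and 9 lower in KO1, and 9 higher and 4 lower in KO2. RSRP1 fell in both (-0.37 and -0.45, adjusted p = 0.0264 and 0.00706). Of 7 hnRNP proteins with other symbols, 3 rose in KO1 and 4 in KO2, among them SYNCRIP (0.19 and 0.13, adjusted p = 0.00494 and 0.00559).

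The kinases that phosphorylate SR proteins were 8 tested genes. In KO1 DYRK1A alone was called (-0.22, adjusted p = 0.00494), and in KO2 2 were higher and 3 lower, among them CLK4 (-0.42, adjusted p = 0.000954) and CLK1 (-0.36, adjusted p = 0.0374). Of 14 genes of nonsense-mediated decay and the exon junction complex, 3 were higher and 1 lower in KO1, and 3 higher and 2 lower in KO2. Of 6 genes of nuclear import and arginine methylation, 2 rose and 2 fell in KO1 and 4 rose in KO2. The arginine methyltransferase gene PRMT1 was at -0.17 in KO1 (adjusted p = 0.0285) and 0.45 in KO2 (adjusted p = 6.88e-07). MYC rose by 0.42 in KO1 (adjusted p = 7.32e-05) and 0.17 in KO2 (adjusted p = 0.032).

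**Figure D2:**
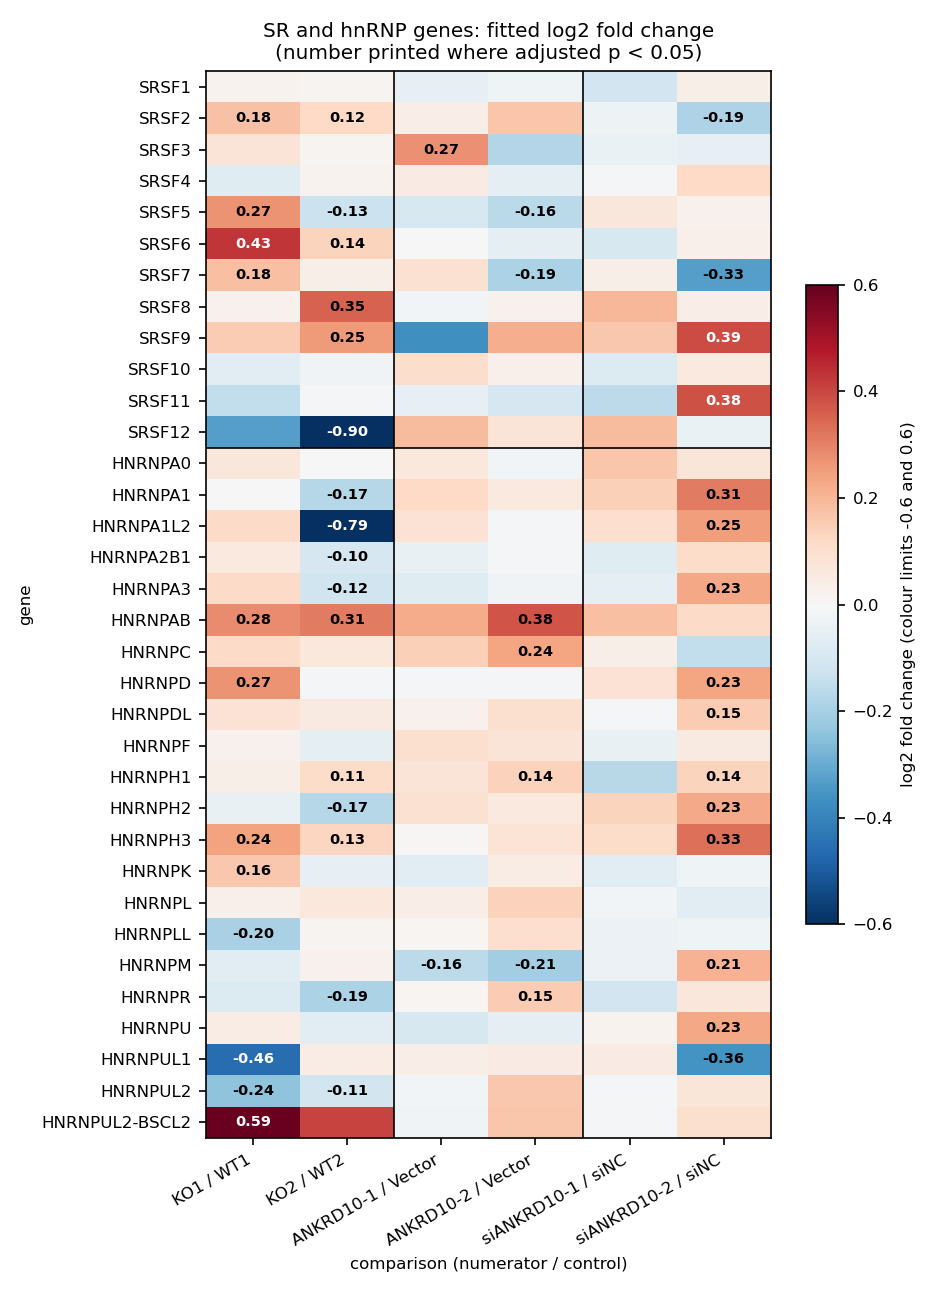
Log2 fold change of each of the 34 members (rows) against the control group in the 6 comparisons with a control (columns). The value is printed in a cell where edgeR's adjusted p was under 0.05. The colour scale ends at -0.6 and 0.6, so SRSF12 (-0.90) and HNRNPA1L2 (-0.79) in KO2 lie beyond it. The siANKRD10-1 column has no printed value. In the siANKRD10-2 column the printed values are 10 rises and 1 fall among the 22 hnRNP genes. Among the 12 SR genes they are 2 rises and 2 falls.

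Under ANKRD10 overexpression few members moved, and HNRNPM was lower with both isoforms. With ANKRD10-2 7 of the 34 members were called against Vector (20.6%), 4 higher and 3 lower, beside 19.9% of all 20177 genes tested (10.7% higher and 9.25% lower) and 45.8% of the abundant genes. With ANKRD10-1 2 were called (5.88%), 1 higher and 1 lower, beside 6.31% of all 20457 genes tested (3.5% higher and 2.81% lower) and 22.1% of the abundant genes. At an unadjusted p under 0.05 there were 10 members with ANKRD10-2 (29.4%, beside 32.3% of all genes tested) and 9 with ANKRD10-1 (26.5%, beside 20.7%). The 4 members that rose with ANKRD10-2 were hnRNP genes, and the 3 that fell were 2 SR genes and HNRNPM. Both comparisons use the same 3 Vector libraries.

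HNRNPC, which binds U-rich stretches and keeps cryptic exons out (chr14:21209136-21269494, minus strand), had 33435, 33820 and 31549 normalized counts in Vector and 39506, 38732 and 37936 with ANKRD10-2, a log2 fold change of 0.24 ± 0.045 (SE, edgeR adjusted p = 0.00242). With ANKRD10-1 it was at 0.14 (adjusted p = 0.0579). HNRNPR had 26383, 26221 and 24969 in Vector, 26523, 26177 and 25399 with ANKRD10-1 and 29278, 29059 and 27741 with ANKRD10-2, a log2 fold change of 0.15 ± 0.045 (SE, edgeR adjusted p = 0.0299) with ANKRD10-2. HNRNPH1, a reader of G-runs, had 64454, 62948 and 64433 in Vector and 71322, 69636 and 69728 with ANKRD10-2, a log2 fold change of 0.14 ± 0.042 (SE, edgeR adjusted p = 0.0334). These 3 genes were taken from called members without overlap between Vector and ANKRD10-2, so that trait was set by the choice. Over all genes tested 36.3% had no overlap in this comparison. The HNRNPR call was lost without ANKRD10-2 replicate 2 or any 1 Vector library (0.13 to 0.17). That of HNRNPH1 held in 1 of 6 fits with 1 library left out, the one without ANKRD10-2 replicate 1, and ran from 0.12 to 0.15.

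HNRNPM, which binds GU-rich RNA (chr19:8444767-8489114, plus strand), had 16775, 17826 and 17852 in Vector, 15727, 15735 and 15631 with ANKRD10-1 and 15377, 14935 and 15084 with ANKRD10-2. All 6 overexpression libraries were below all Vector libraries, with log2 fold changes of -0.16 ± 0.043 (SE, edgeR adjusted p = 0.0389) and -0.21 ± 0.045 (SE, edgeR adjusted p = 0.00576). The ANKRD10-1 call held in 1 of 6 fits with 1 library left out, the one without Vector replicate 1, and ran from -0.14 to -0.16 in the other fits. SRSF7, an SR protein with a zinc knuckle, had 2106, 2093 and 2107 in Vector, 2164, 2127 and 2440 with ANKRD10-1 and 1902, 1795 and 1818 with ANKRD10-2, a log2 fold change of -0.19 ± 0.053 (SE, edgeR adjusted p = 0.0215) with ANKRD10-2. SRSF5 had 14884, 14975 and 15055 in Vector and 13419, 13431 and 13209 with ANKRD10-2, a log2 fold change of -0.16 ± 0.042 (SE, edgeR adjusted p = 0.0149). The SRSF7 call held only without ANKRD10-2 replicate 1 (range of the others -0.17 to -0.20), and the SRSF5 call was lost without ANKRD10-2 replicate 3, Vector replicate 1 or Vector replicate 3 (-0.15 to -0.17).

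SRSF3, the smallest SR protein (chr6:36594353-36605600, plus strand), was the only member called higher with ANKRD10-1. It had 3107, 2874 and 2925 in Vector, 3803, 3446 and 3508 with ANKRD10-1 and 2268, 2804 and 2800 with ANKRD10-2. The isoforms lay on opposite sides of Vector, with log2 fold changes of 0.27 ± 0.052 (SE, edgeR adjusted p = 0.00359) and -0.18 ± 0.074 (SE, edgeR adjusted p = 0.109). The fall with ANKRD10-2 was not called, nor was it in any of 6 fits with 1 library left out. That fall ran from -0.22 to -0.08 over 11 alternative fits, of which 1 called it. HNRNPAB was called with ANKRD10-2, at 0.38 ± 0.11 (SE, edgeR adjusted p = 0.029), with overlapping libraries (4287, 4397 and 6336 in Vector and 6844, 6375 and 6289 with ANKRD10-2). Vector replicate 3 stood apart from the other Vector libraries in this gene, and without it the log2 fold change was 0.59. The call was lost without any other single library of the 6 (0.28 to 0.40) and with DESeq2 (adjusted p = 0.163).

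Compared directly, ANKRD10-2 and ANKRD10-1 differed in 4 members (11.8%), 2 higher and 2 lower with ANKRD10-2. Beside them, 7.26% of all 20052 genes tested (4.15% higher and 3.1% lower) and 16.4% of the abundant genes were called. SRSF3 was lower with ANKRD10-2 by -0.45 ± 0.070 (SE, edgeR adjusted p = 0.000357) on the log2 scale, and SRSF7 by -0.29 (adjusted p = 0.00724). The SRSF7 call was lost without ANKRD10-1 replicate 3 (-0.22). HNRNPUL2-BSCL2 was higher by 0.18 (adjusted p = 0.0485), a call lost without any 1 ANKRD10-1 library (0.18 to 0.19) or ANKRD10-2 replicate 3 (0.12). Its libraries were at 17037, 17322 and 17001 with ANKRD10-1 and 18572, 18558 and 21208 with ANKRD10-2. HNRNPUL2, which shares exon bases with it and was not called, was at 18474, 18645 and 18316 and at 20065, 20011 and 22545. Whether both genes were counted from the same reads was not tested.

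SRSF9 was higher with ANKRD10-2 than with ANKRD10-1 by 0.59 ± 0.11 (SE, edgeR adjusted p = 0.00303). Its libraries were at 3991, 4327 and 4016 with ANKRD10-1, 5440, 4908 and 8122 with ANKRD10-2 and 3871, 3763 and 8246 in Vector. The replicates numbered 3 of Vector and ANKRD10-2 stood far above the others of their groups. Without ANKRD10-2 replicate 3 the difference was 0.33 and still called, and DESeq2 (adjusted p = 0.104) and the fit over all libraries of the table (adjusted p = 0.112) did not call it. Against Vector neither isoform was called for SRSF9 (0.22 for ANKRD10-2, adjusted p = 0.589, and -0.37 for ANKRD10-1, adjusted p = 0.295).

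**Figure D3:**
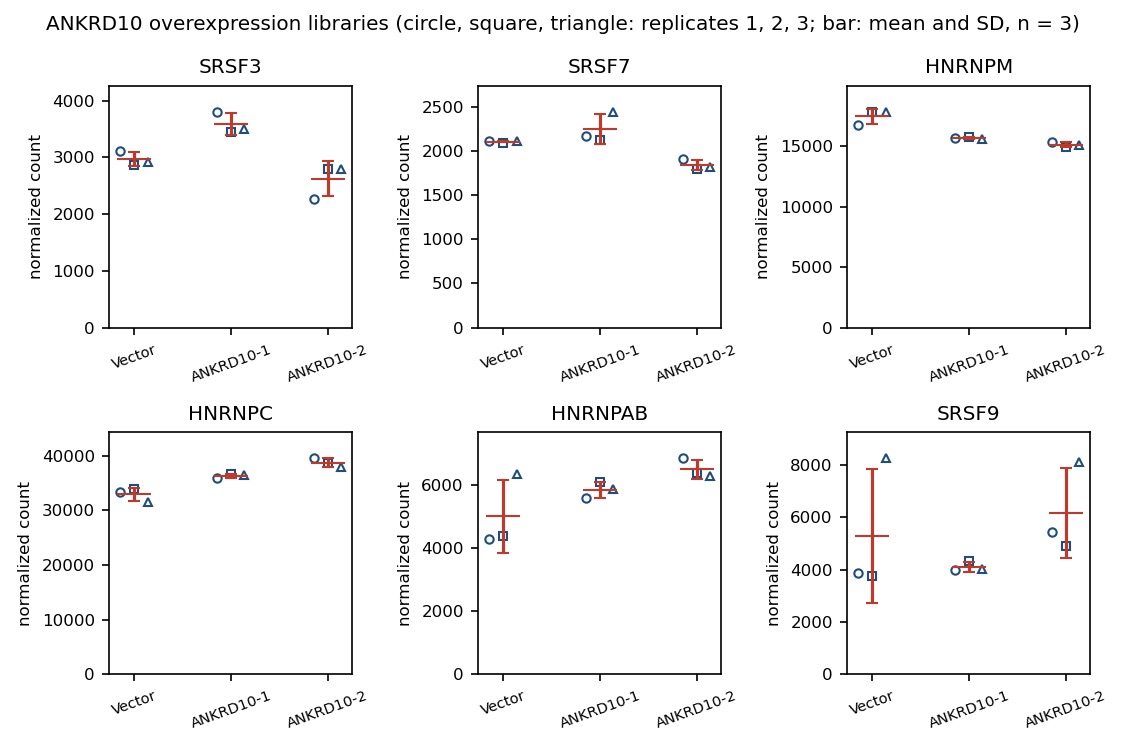
Normalized counts of 6 members in the 9 libraries of the overexpression table, with the mean and SD of each group (n = 3) and axes from 0. All 6 overexpression libraries of HNRNPM lie below the Vector libraries. SRSF3 is above Vector with ANKRD10-1 and below it with ANKRD10-2, a fall that was not called. In SRSF9, replicate 3 of Vector and of ANKRD10-2 stand apart.

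In the related lists, 9 of the 30 core snRNP genes were called higher with ANKRD10-2 (30%) and 4 with ANKRD10-1 (13.3%). Beside them, 19.9% and 6.31% of all genes and 45.8% and 22.1% of the abundant genes were called. No core snRNP gene was called lower with either isoform. SF3B6, a subunit of the branch-site complex SF3B, was at 0.39 (adjusted p = 0.000385) and 0.20 (adjusted p = 0.0461). Among 26 SR-like and SR-related genes 5 were higher and 3 lower with ANKRD10-2, and 4 higher and 1 lower with ANKRD10-1. TRA2B, which binds GAA-rich exonic enhancers, rose with both (0.39 and 0.42, adjusted p = 4.9e-05 and 4.73e-06). The kinase gene CLK1 rose with ANKRD10-2 (0.29, adjusted p = 0.000506) and differed between the isoforms (0.36, adjusted p = 0.000112). EIF4A3, the helicase of the exon junction complex, was the only called gene of its list of 14 with either isoform (0.45 and 0.28, adjusted p = 0.00331 and 0.0432), and PRMT1 rose with both (0.36 and 0.30, adjusted p = 0.00034 and 0.00153). MYC was higher with ANKRD10-2 (0.55, adjusted p = 2.16e-05) and at 0.16 with ANKRD10-1 (adjusted p = 0.0914).

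Under siANKRD10-2 the hnRNP genes rose more often than they fell, and SRSF9 and SRSF11 had the largest rises of all members. Against siNC 15 of the 34 members were called (44.1%), 12 higher and 3 lower, beside 36.3% of all 18924 genes tested (17.6% higher and 18.7% lower) and 65.5% of the abundant genes. Of the 22 hnRNP genes 10 were higher and 1 lower, and of the 12 SR genes 2 were higher and 2 lower. The abundant genes also rose more often than they fell, with 417 of 1071 higher and 284 lower. The risers included 5 of the 8 genes of the A/B and D group and 3 of the 4 of the F/H group. The median log2 fold change was 0.07 for members and 0.001 for all genes tested, and no member reached 0.5 in size. As a share of all counts the hnRNP genes made up 2.87 to 2.88% under siANKRD10-2, 2.49 to 2.60% under siANKRD10-1 and 2.49 to 2.55% in siNC. The SR genes made up 0.409 to 0.423%, 0.355 to 0.358% and 0.367 to 0.372%. The siANKRD10-2 libraries thus had the highest share of both families. In the SR genes the added share came largely from SRSF11, which had the most counts of them (values below). A rise of the SR genes as a family is not shown by this share.

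SRSF9 had 5200, 5420 and 5501 normalized counts in siNC, 6025, 5462 and 6543 under siANKRD10-1 and 7015, 7202 and 6913 under siANKRD10-2, a log2 fold change of 0.39 ± 0.052 (SE, edgeR adjusted p = 1.17e-06) under siANKRD10-2. SRSF11, an SR-related protein that associates with U2AF (chr1:70205682-70253052, plus strand), had 29271, 30850 and 31240 in siNC, 27808, 26818 and 27345 under siANKRD10-1 and 40794, 40651 and 37564 under siANKRD10-2. The 3 groups did not overlap, with siANKRD10-1 lowest and siANKRD10-2 highest, and the log2 fold change under siANKRD10-2 was 0.38 ± 0.054 (SE, edgeR adjusted p = 2.97e-06). HNRNPH3, with CACGTG before 1 of its 3 starts, had 20926, 21268 and 23019 in siNC, 23195, 22652 and 24610 under siANKRD10-1 and 27189, 26227 and 28537 under siANKRD10-2, a log2 fold change of 0.33 ± 0.055 (SE, edgeR adjusted p = 2.65e-05).

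HNRNPUL1 had 13407, 14278 and 13493 in siNC, 14388, 14006 and 14261 under siANKRD10-1 and 10819, 10733 and 10564 under siANKRD10-2. It was low under siANKRD10-2 only, with a log2 fold change of -0.36 ± 0.051 (SE, edgeR adjusted p = 3.9e-06), and the median of chromosome 19 in this comparison was 0.02. SRSF7 (chr2:38743599-38751494, minus strand) had 5806, 6139 and 6272 in siNC, 6421, 5786 and 6437 under siANKRD10-1 and 4816, 4877 and 4773 under siANKRD10-2, a log2 fold change of -0.33 ± 0.052 (SE, edgeR adjusted p = 1.45e-05). SRSF2, which like SRSF1 activates exonic enhancers, had 2006, 1844 and 2090 in siNC and 1627, 1776 and 1813 under siANKRD10-2, a log2 fold change of -0.19 ± 0.061 (SE, edgeR adjusted p = 0.0191). Its call was lost without siNC replicate 1 (-0.17), siNC replicate 3 (-0.15) or siANKRD10-2 replicate 1 (-0.14).

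The other rises in the A/B and D group under siANKRD10-2 were HNRNPA1 (0.31, adjusted p = 5.42e-05), HNRNPA1L2 (0.25, adjusted p = 0.0118), HNRNPD (0.23, adjusted p = 0.00168), HNRNPA3 (0.23, adjusted p = 0.00641) and HNRNPDL (0.15, adjusted p = 0.032). HNRNPA1 went from 122654, 129848 and 134709 in siNC to 160177, 164628 and 155851. In the F/H group HNRNPH2 (0.23, adjusted p = 0.00097) and HNRNPH1 (0.14, adjusted p = 0.0447) rose. HNRNPM, with 66123, 67302 and 67599 in siNC, 65486, 63066 and 67482 under siANKRD10-1 and 77904, 77507 and 76739 under siANKRD10-2, was at 0.21 (adjusted p = 0.00201), and the scaffold protein gene HNRNPU at 0.23 (adjusted p = 0.00089). The libraries of HNRNPA1L2, HNRNPA3 and HNRNPDL overlapped with those of siNC. Their calls were lost without siNC replicate 1 (0.15), siANKRD10-2 replicate 1 (0.22) or siANKRD10-2 replicate 2 (0.21) for HNRNPA1L2, and without siANKRD10-2 replicate 3 for HNRNPA3 (0.17). HNRNPDL was lost without siNC replicate 1 or 2 or siANKRD10-2 replicate 2 or 3 (0.12 to 0.15), and HNRNPH1 held only without siNC replicate 3 (0.11 to 0.14 in the others).

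All 6 members with CACGTG in the promoter were called higher under siANKRD10-2, with a median log2 fold change of 0.23, and 5 of the 26 members without it (19.2%). Over all genes tested with a matched promoter, 20.5% of the 1216 genes with the motif and 18.8% of the 9788 without it were higher. The motif and the members were chosen with earlier results known, and no test was made of this count. In the other comparisons with a control, the 6 members were called 2 higher and 0 lower in KO1, 1 higher and 2 lower in KO2, 0 higher and 1 lower with either ANKRD10 isoform, and 0 in either direction under siANKRD10-1. MYC was lower under siANKRD10-2 than in siNC (-0.60, adjusted p = 3.72e-08).

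Under siANKRD10-1 no member was called by edgeR against siNC, beside 10.6% of all 18785 genes tested (5.08% higher and 5.52% lower). An unadjusted p under 0.05 was found for 10 members (29.4%, beside 25.1% of all genes tested), and DESeq2 called 3. The lowest adjusted p-values were those of HNRNPH1 (-0.17, adjusted p = 0.0596), SRSF11 (-0.16, adjusted p = 0.062) and HNRNPAB (0.18, adjusted p = 0.0694). HNRNPH1 had 53658, 55812 and 57941 normalized counts in siNC, 46845, 51277 and 50971 under siANKRD10-1 and 61822, 60356 and 61544 under siANKRD10-2, so its 3 groups did not overlap. Of the abundant genes 22.8% were called under siANKRD10-1.

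**Figure D4:**
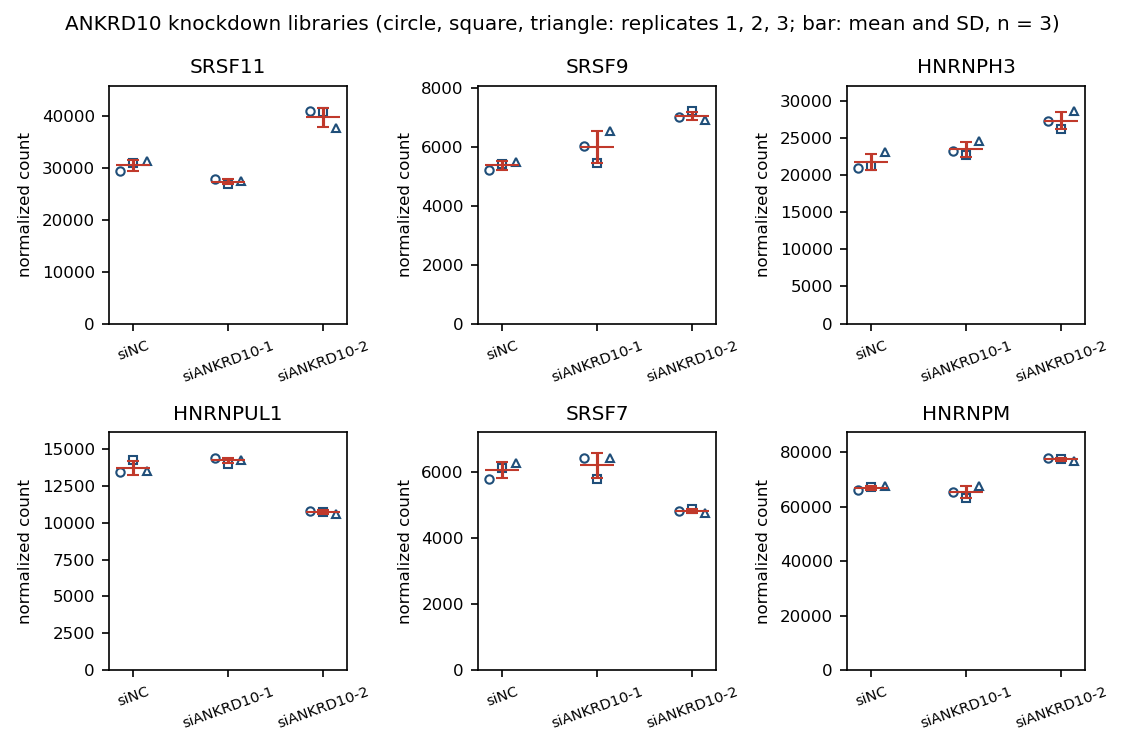
Normalized counts of 6 members in the 9 libraries of the knockdown table, with the mean and SD of each group (n = 3) and axes from 0. In SRSF11, SRSF9, HNRNPH3 and HNRNPM the siANKRD10-2 libraries are above all others, in HNRNPUL1 and SRSF7 they are below all others.

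Compared directly, siANKRD10-2 and siANKRD10-1 differed in 18 members (52.9%), 15 higher and 3 lower under siANKRD10-2. Beside them, 37% of all 18832 genes tested (18.2% higher and 18.8% lower) and 67.3% of the abundant genes were called. Of the 1078 abundant genes 399 were higher and 327 lower. SRSF11 was higher by 0.54 ± 0.052 (SE, edgeR adjusted p = 2.58e-08), and HNRNPUL1 lower by -0.40 ± 0.050 (SE, edgeR adjusted p = 9.63e-07) on the log2 scale. The other falls were SRSF7 (-0.36, adjusted p = 1.69e-05) and HNRNPC (-0.18, adjusted p = 0.0147). The rises of at least 0.2 were HNRNPH1 (0.31, adjusted p = 5.51e-05), HNRNPA3 (0.29, adjusted p = 0.0005), HNRNPM (0.25, adjusted p = 0.000338), SRSF9 (0.23, adjusted p = 0.00351), HNRNPH3 (0.22, adjusted p = 0.00186) and HNRNPU (0.21, adjusted p = 0.00134). SRSF1 (0.16), SRSF4 (0.13), SRSF10 (0.15), HNRNPA1 (0.17), HNRNPA2B1 (0.19), HNRNPD (0.15), HNRNPDL (0.16) and HNRNPR (0.19) were also called higher. Of these, all but HNRNPR lost the call in 1 or more fits with 1 library left out, as did HNRNPC. Without siANKRD10-1 replicate 1 the values were 0.12 for SRSF1, 0.10 for SRSF10 and 0.16 for HNRNPA2B1, and none was called. The other losses were SRSF1 without siANKRD10-2 replicate 1 (0.12), HNRNPA1 without siANKRD10-1 replicate 1 or siANKRD10-2 replicate 2 (0.15 to 0.17), and HNRNPC without replicate 3 of either group (-0.12 and -0.16). HNRNPD (0.11 to 0.15), HNRNPDL (0.13 to 0.15), SRSF4 (0.09 to 0.14) and SRSF10 (0.10 to 0.17) held in 2, 3, 2 and 1 of 6 such fits, respectively.

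Among the related genes under siANKRD10-2, 14 of 26 SR-like and SR-related genes were higher and 2 lower, against 2 higher and 9 lower under siANKRD10-1. These are 61.5% and 42.3% of the list, beside 36.3% and 10.6% of all genes and 65.5% and 22.8% of the abundant genes. The difference between the siRNAs was called for 19 higher and 2 lower genes of this list. U2AF1, the small subunit that recognizes the 3′ splice site, rose in both (0.40 and 0.25, adjusted p = 1.44e-05 and 0.0262). LUC7L3, a factor of the U1 snRNP, was at 0.38 under siANKRD10-2 (adjusted p = 1.72e-06) and was higher than under siANKRD10-1 by 0.61 (adjusted p = 1.83e-09). Of 30 core snRNP genes 7 were higher and 5 lower, among them SNRNP200, the helicase of the U5 snRNP (0.65, adjusted p = 2.78e-08), and SNRPG of the Sm ring (-0.86, adjusted p = 1.72e-09). Under siANKRD10-1 4 were higher and none lower.

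The 7 hnRNP proteins with other symbols were called 3 times, all lower, under siANKRD10-2, among them PCBP2 (-0.25, adjusted p = 0.0004) and PTBP1 (-0.25, adjusted p = 0.000923). The kinase gene CLK1 fell under both siRNAs (-0.40 and -0.37, adjusted p = 3.7e-06 and 0.000557), as did DYRK1A (-0.23 and -0.28, adjusted p = 0.00214 and 0.00747). Of the 14 decay and exon junction genes 5 rose and 5 fell under siANKRD10-2. UPF2 was at 0.36 (adjusted p = 1.27e-05), UPF1 at -0.42 (adjusted p = 1.3e-06) and EIF4A3 at -0.41 (adjusted p = 1.2e-06). PRMT5 and TNPO1 were among 3 of 6 import and methylation genes that fell (-0.33 and -0.30, adjusted p = 0.00014 and 9.54e-05). The siRNA groups share the siNC libraries, and the lists were described by their counts only.

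Members that were called in no comparison with a control were HNRNPA0, HNRNPF, HNRNPL, SRSF1, SRSF4 and SRSF10. HNRNPF, a G-run binder, ranged from -0.05 in KO2 to 0.10 with ANKRD10-1 on the log2 scale. HNRNPL, which binds CA repeats, ranged from -0.07 under siANKRD10-2 to 0.14 with ANKRD10-2. HNRNPA0 ranged from -0.02 with ANKRD10-2 to 0.17 under siANKRD10-1, and SRSF1 from -0.12 under siANKRD10-1 to 0.03 under siANKRD10-2. SRSF4 ranged from -0.07 in KO1 to 0.12 under siANKRD10-2, and SRSF10 from -0.08 under siANKRD10-1 to 0.10 with ANKRD10-1.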

How the data were processed

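Poly(A) RNA-seq counts of 30 libraries (10 groups of 3) were read from 3 gene tables. The authors deposited raw counts per gene, without normalization. The submitters' processing notes name Trimmomatic 0.36, featureCounts of Subread 1.5.1 and GRCh38, and the paper names Cutadapt, HISAT2 and StringTie. The annotation behind the counts is not given in the sources used here. The overexpression and knockdown tables also carry a deposited exon length (other unit), used for TPM there. GENCODE exon lengths were used for the knockout table, whose Ensembl identifiers were matched to symbols (42020 of 60612).

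Groups came from the labels. In R 4.3.3, each comparison of 2 groups was fitted on its own libraries with edgeR 4.0.16 (filterByExpr, TMM, quasi-likelihood test, Benjamini-Hochberg over all genes tested, threshold 0.05), and the difference between knockouts as an interaction over 12 libraries. The procedure was tested on simulated data. With 3 against 3 an exact permutation test cannot go below 0.1, so no such test was used. Normalized counts are counts divided by the effective library size and multiplied by the mean effective size of the table. The SE of a fold change was not reported by the test. It was derived as the absolute log2 fold change divided by the square root of the quasi-likelihood F statistic. Total counts per library ran from 28511029 to 69723937.

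Library values, SE and adjusted p were given for up to 3 rises and 3 falls per comparison with a control and for the difference between knockouts, and for 1 and 1 between isoforms, among called members without overlap and with at least 50 normalized counts. HNRNPAB with ANKRD10-2 and the members used to show a pattern fall outside this rule and were chosen after their values were seen. Members and lists were chosen with earlier results of these data known. Same-numbered libraries were not treated as pairs, because the correlation of their deviations (-0.104 to 0.2) was not above 0.1 in all pairs of any comparison. In KO2 (0.0834 to 0.15) and with ANKRD10-2 overexpression (0.0743 to 0.189) every treated library was closest to its own number. A pairing in those comparisons was therefore not settled, and the main fits carry none. Alternatives were DESeq2 1.42.0, its size factors, no filter, a replicate block, all libraries of a table, all 6 wild-type libraries and leaving out each library.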

Additional observations from a re-analysis of the deposited data

Results flagged for a closer look

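The difference between the knockouts, tested as the log2 fold change in KO1 minus that in KO2 over 12 libraries, was past the threshold for 9 members. These are 26.5% of the members, beside 23.3% of all genes tested and 38.3% of the abundant genes. The difference was 0.90 for HNRNPA1L2, 0.40 for SRSF5, 0.29 for SRSF6, 0.27 for HNRNPD, 0.23 for HNRNPA3 and 0.21 for HNRNPK. It was -0.21 for HNRNPLL, -0.33 for SRSF8 and -0.51 for HNRNPUL1. For SRSF5, SRSF6, HNRNPD, HNRNPA3 and HNRNPUL1 the wild-type groups WT1 and WT2 did not overlap each other. The median difference over all genes tested was -0.39 on chromosome 19 (HNRNPUL1) and 0.43 on chromosome 9 (HNRNPK). It was 0.15 on chromosome 13 (HNRNPA1L2) and -0.11 on chromosome 20 (SRSF6). The part of these values in these differences was not tested.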

How the results depend on the processing

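Over 106 alternative fits the number of called members stayed within 1.5 times that reported in 85 and moved further in 21. No called member changed direction in any alternative. For ANKRD10-2 overexpression the 7 calls became 11 without the filter on low counts and 11 with a replicate block. For ANKRD10-1 overexpression the 2 calls became 6 without the filter and 4 with DESeq2. For siANKRD10-1 the 0 calls became 4 without the filter, 3 with DESeq2, 5 with the replicate block and 3 over all libraries of the table. The 4 calls between the overexpressed isoforms became 2 over all libraries of the table. The cause of these moves was not tested.

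Leaving out 1 library at a time gave 10 to 15 calls in KO1, 13 to 15 in KO2, 6 to 10 in the difference between knockouts, 2 to 7 with ANKRD10-2, 1 to 2 with ANKRD10-1 and 2 to 5 between these isoforms. It gave 12 to 17 under siANKRD10-2, 0 to 5 under siANKRD10-1 and 11 to 19 between the siRNAs. Over all genes tested, leaving out 1 library lowered the count by over 1.5 times in 4 comparisons, at the lowest from 4017 to 2617 with ANKRD10-2, 1291 to 700 with ANKRD10-1, 1455 to 694 between these isoforms and 1991 to 949 under siANKRD10-1. Over the 83 called results, 82 were kept with DESeq2 size factors, 81 with DESeq2, 78 with the replicate block, 77 without the filter, 65 of 74 over all libraries of the table and 20 of 28 with all 6 wild-type libraries as controls. In KO2 and under ANKRD10-2 overexpression every treated library was closest to the control of its own number, in the other comparisons not all were. Counts were lowest for SRSF12, at 54.9 to 91.4 normalized counts in the knockdown table. In KO2 its SD was 38.2 at a mean of 126 (n = 3).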
